A study of Mus musculus with 12 samples.

Results

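The 7 genes described here make up the core of MHC class II antigen presentation: Ciita, Cd74, H2-Aa, H2-Ab1, H2-Eb1, H2-DMa and H2-DMb1. They were chosen by their gene symbols, and each matched a single entry among the 47643 genes of the table. RNA was sequenced in bulk from 12 libraries of spleen cells labelled as naive CD4+ T cells of C57BL/6 mice, which were either WT or Tnfr2-/-, without TNF receptor 2 (gene Tnfrsf1b). Every group was activated for 3 days with antibodies to CD3 and CD28, coated at 2 μg/ml each, with 500000 cells per well. The WT groups had no cytokine added (Th0), IL-6 at 20 ng/ml with TGF-β at 2 ng/ml, or TNF at 20 ng/ml with TGF-β at 2 ng/ml. Tnfr2-/- cells received TNF at 20 ng/ml with TGF-β at 2 ng/ml. Each of the 4 groups holds 3 libraries. The labels speak of triplicates without naming separate mice or cultures, so p-values measure only the spread between these libraries, which may be technical. The Tnfr2-/- libraries carry the numbers 1, 2 and 4 in the table, so the third of them is called the library numbered 4. Neither a Tnfr2-/- group without cytokines nor a group with TGF-β alone was analysed here, so the genotype and the cytokine pairs were compared only in these combinations.

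MHC class II molecules display peptides from ingested proteins to CD4 T cells, and they are made mainly by B cells, dendritic cells and macrophages. The alpha and beta chains assemble in the endoplasmic reticulum with the invariant chain, which is degraded in endosomes, where the peptide editor H2-DM helps antigenic peptides to take its place. The genes are switched on together by the coactivator CIITA, and mouse T cells, unlike activated human T cells, hardly express them. In RNA from a bulk culture labelled as T cells, such transcripts are therefore read mainly as coming from other cells. In such samples, fewer cells of a type and less RNA per cell cannot be told apart.

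The labels were checked first on the targeted gene. Tnfrsf1b (ENSMUSG00000028599.10, chromosome 4, 145213463 to 145246870, minus strand, GRCm38) was listed at 17.4 to 22.6 FPKM in Th0, 36.7 to 77.4 with IL-6+TGF-β and 70.8 to 108 with TNF+TGF-β, and at 4.87, 3.71 and 3.19 in Tnfr2-/- cells. FPKM counts fragments per kilobase of transcript, relative to all mapped fragments of the library, and is a level per length. Estimated depth was 16700000 to 24000000 fragments per library. The T cell markers were present in every library, with a summed level of the 8 markers between 1072 and 2296 FPKM. Cd8a and Cd8b1, which encode the CD8 coreceptor, were both above Cd4 in 11 of 12 libraries, so the CD4 label was not matched by coreceptor RNA. The 12 B cell markers were also present in all libraries, with sums of 313 to 5121 FPKM.

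Coordinates are those of GRCm38. The chain and editor genes sit in the MHC on chromosome 17, with H2-DMa (ENSMUSG00000037649.9) at 34119541 to 34139101, H2-DMb1 (ENSMUSG00000079547.3) at 34153072 to 34160230, H2-Ab1 (ENSMUSG00000073421.5) at 34257689 to 34269419, H2-Aa (ENSMUSG00000036594.14, minus strand) at 34282744 to 34287823 and H2-Eb1 (ENSMUSG00000060586.10) at 34305867 to 34316674. Ciita (ENSMUSG00000022504.9) spans 10480059 to 10528418 on chromosome 16. The values are sums over whole genes and could not be placed on exons.

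Class II promoters carry an X box, bound by the RFX complex, and a Y box, bound by NF-Y, and CIITA acts on the factors bound there. RefSeq promoter windows of 300 bases (GRCm38.p6, from 250 before to 50 after the start) were matched by symbol for 4 of the 7 genes. The letters GNAACT were searched as an X core and GATTGG as a Y core, on both strands, and the pair was counted where X preceded Y on the same strand with 20 to 35 bases between them. The motifs were chosen after the windows had been read. The stretches around the pair are shown for the genes that had it outside their own annotated gene body, as letters that these genes share. H2-Aa is a member on the minus strand, H2-Eb1 is a member on the plus strand, and H2-Eb2 is the paralog of H2-Eb1 next to it. H2-Eb2 was higher in Tnfr2-/- cells, as the members were, but its WT groups overlapped. Their means were 6.41 FPKM in Th0, 6.55 with IL-6+TGF-β and 5.62 with TNF+TGF-β. Capitals mark the X core first and the Y core second.
H2-Aa (chr17:34287855-34287916, minus strand): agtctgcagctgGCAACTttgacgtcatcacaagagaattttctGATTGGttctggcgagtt
H2-Eb1 (chr17:34305764-34305824, plus strand): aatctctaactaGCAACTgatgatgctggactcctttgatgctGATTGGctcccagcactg
H2-Eb2 (chr17:34325531-34325591, plus strand): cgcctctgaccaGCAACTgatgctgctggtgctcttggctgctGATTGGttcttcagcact

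The gap between the cores was 26 bases in H2-Aa and 25 bases in both H2-Eb1 and H2-Eb2. H2-DMb1 held the pair as well, with a gap of 26 bases and GTAACT as its X core, so 3 of the 4 members with a window had it. Neither of the 2 H2-DMa windows did. Among the 19 other class II pathway genes, 16 had a window and 1, H2-Eb2, had the pair. Of all 32851 windows, 42.8% held GNAACT, 16.1% held GATTGG and 0.253% held the pair. A match is a description of these letters, and binding was not measured.

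The levels kept a fixed order. In 12 of 12 libraries Cd74 was highest, followed by H2-Ab1, H2-Aa, H2-Eb1, H2-DMa, H2-DMb1 and Ciita. H2-Ab1 and H2-Aa were neighbours whose levels differed by less than the spread between libraries of a group, although H2-Ab1 was above H2-Aa within every library. The same held for H2-Aa and H2-Eb1 in Th0 and with IL-6+TGF-β, and for H2-DMb1 and Ciita with TNF+TGF-β in WT. The 7 genes together took 0.903% to 1.42% of all FPKM in Th0, 0.395% to 0.849% with IL-6+TGF-β and 0.388% to 0.601% with TNF+TGF-β. In Tnfr2-/- cells they took 2.51%, 4.21% and 4.8%. Cd74 was the gene with the highest FPKM of all genes in each Tnfr2-/- library, whereas it ranked 2 to 4 in Th0, 4 to 29 with IL-6+TGF-β and 10 to 28 with TNF+TGF-β.

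**Figure D1:**
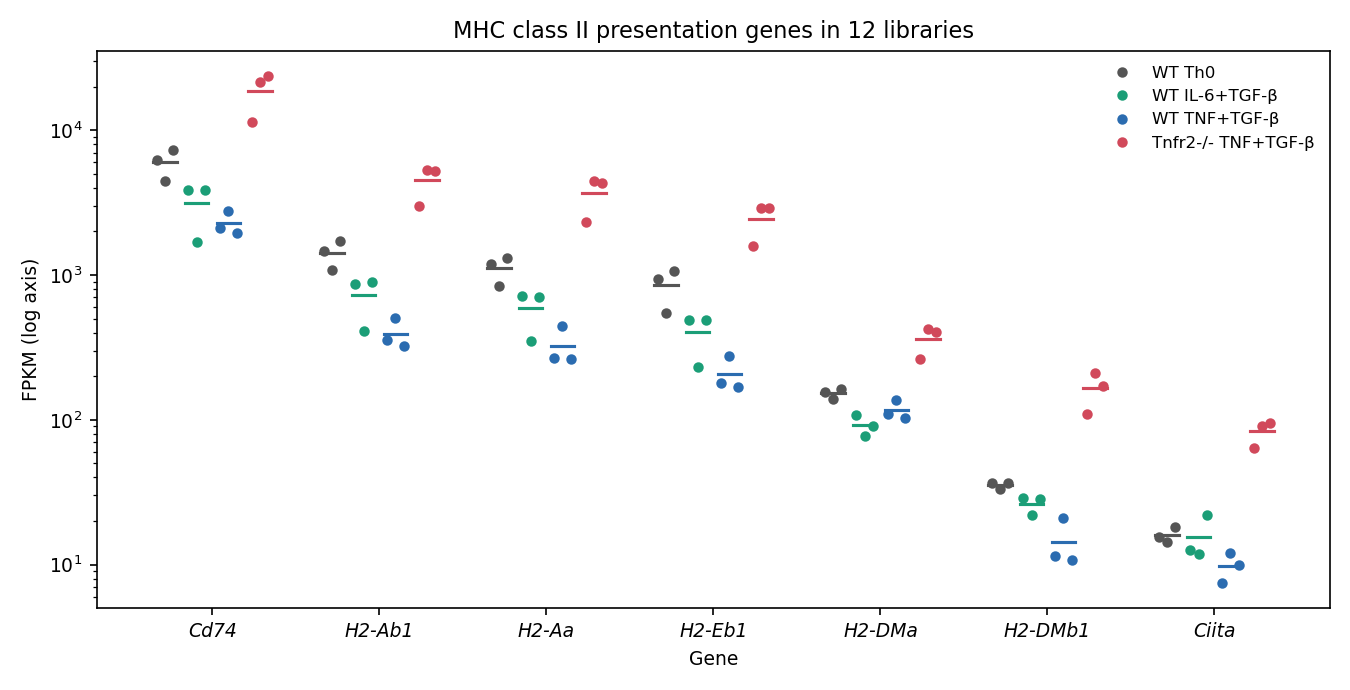
Level of each of the 7 class II genes (FPKM, log axis) in the 12 libraries, with 1 point per library and a line at the mean of each of the 4 groups of 3 libraries. For every gene the Tnfr2-/- libraries lie above all WT libraries, as for Cd74, at 11374 to 23674 FPKM.

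Cd74 (ENSMUSG00000024610.14, chromosome 18, 60803848 to 60812652) encodes the invariant chain. It was listed at 6223, 4445 and 7314 FPKM in Th0, at 3839, 1696 and 3857 with IL-6+TGF-β, at 2127, 2749 and 1966 with TNF+TGF-β, and at 11374, 21402 and 23674 in Tnfr2-/- cells with TNF+TGF-β. All libraries of both WT cytokine groups were below all of Th0, the WT cytokine groups overlapped each other, and Tnfr2-/- libraries were above every WT library. The first Tnfr2-/- library was the lowest of its group.

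H2-Ab1 encodes the beta chain of the H2-A molecule, the class II molecule that C57BL/6 mice display. It was listed at 1462, 1075 and 1704 FPKM in Th0, at 873, 409 and 897 with IL-6+TGF-β, at 353, 503 and 324 with TNF+TGF-β, and at 3011, 5331 and 5264 in Tnfr2-/- cells. The order of the groups was that of Cd74, and the second IL-6+TGF-β library again lay low, among the TNF+TGF-β libraries.

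H2-Aa encodes the alpha chain that pairs with it. Its levels were 1192, 835 and 1312 FPKM in Th0, 719, 351 and 705 with IL-6+TGF-β, 267, 446 and 262 with TNF+TGF-β, and 2326, 4471 and 4303 in Tnfr2-/- cells. The lowest library of each group was the same as for H2-Ab1. The highest was the same too, except with IL-6+TGF-β, where it was the first library for H2-Aa and the third for H2-Ab1.

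H2-Eb1 encodes the beta chain of H2-E, a molecule that is not displayed in C57BL/6 mice because their alpha chain gene is a pseudogene. Its levels were 937, 545 and 1058 FPKM in Th0, 489, 232 and 490.0 with IL-6+TGF-β, 179, 275 and 169 with TNF+TGF-β, and 1575, 2907 and 2887 in Tnfr2-/- cells. The pseudogene, H2-Ea-ps, was listed at 0 to 0.26 FPKM over the 12 libraries.

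H2-DMa and H2-DMb1 encode the chains of the peptide editor H2-DM. H2-DMa was listed at 155, 140 and 164 FPKM in Th0, at 108, 77.2 and 90.3 with IL-6+TGF-β, at 110.0, 137 and 103.0 with TNF+TGF-β, and at 263, 426 and 403 in Tnfr2-/- cells. Its mean, unlike that of the other 6 members, was higher in the TNF+TGF-β group than in the IL-6+TGF-β group. H2-DMb1 was listed at 36.8, 33.3 and 36.4 FPKM in Th0, at 28.8, 21.8 and 28.2 with IL-6+TGF-β, at 11.4, 21.1 and 10.7 with TNF+TGF-β, and at 109, 212 and 172 in Tnfr2-/- cells. H2-DMb1 has a close paralog, H2-DMb2, and the counting could have split reads between them, so both levels are uncertain.

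Ciita encodes the coactivator. It was listed at 15.5, 14.3 and 18.2 FPKM in Th0, at 12.6, 11.8 and 22.1 with IL-6+TGF-β, at 7.51, 11.9 and 9.90 with TNF+TGF-β, and at 63.3, 91.0 and 94.8 in Tnfr2-/- cells. Its Th0 and IL-6+TGF-β libraries overlapped, unlike those of the other 6 members, and all TNF+TGF-β libraries were below Th0.

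Differences between groups were tested in a limma fit over all 13082 genes that reached 1 FPKM in 3 or more libraries, a filter which all 7 members passed. They are log2 differences of FPKM + 1, with Benjamini-Hochberg adjusted p-values over all genes tested, and a gene is called at an adjusted p under 0.05.

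With TNF+TGF-β against Th0 in WT cells, the chains and the invariant chain were lower. H2-Ab1 fell from 1414 ± 317 to 393 ± 95.9 FPKM (SD, n = 3 each), a log2 difference of −1.84 ± 0.33 (SE, limma adjusted p = 0.00125). H2-Eb1 fell most, by 2.00 ± 0.36 on the log2 scale (limma adjusted p = 0.00128), from 847 ± 268 to 208 ± 58.4 FPKM. H2-Aa fell by 1.79 (0.00188), Cd74 by 1.38 (0.0118) and H2-DMb1 by 1.31 (0.00289), each with its limma adjusted p in parentheses. Ciita, at −0.67 (limma adjusted p = 0.0542), and H2-DMa, at −0.39 (limma adjusted p = 0.139), did not pass. In all, 5 of 7 members were called lower, where 13% of all genes tested were, and 7 of 7 had no overlap between groups in that direction, where 23.2% of all genes had none. The median over the members was −1.38, against 0.07 over all genes tested.

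B cell markers moved with these genes. Of the 12, 11 were called lower and 0 higher with TNF+TGF-β against Th0, and their summed level was 313 to 406 FPKM against 916 to 1415. Cd79a, a signalling chain of the B cell receptor, was listed at 76.5, 123 and 78.0 FPKM with TNF+TGF-β and at 281, 258 and 350.0 in Th0. Of the 12 macrophage and myeloid markers, 10 were tested and 2 were lower, with sums of 87.6 to 169 against 116 to 172 FPKM. The dendritic cell markers summed to 198 to 213 FPKM with TNF+TGF-β and 142 to 179 in Th0, mostly from Cst3. Of the 4 tested, 2 were called higher and 0 lower, against the direction of the class II genes, both named after their values were seen. Itgax, an integrin chain gene, rose by 1.57 (limma adjusted p = 0.00312), from a low mean of 0.17 to 2.57 FPKM. Zbtb46, a transcription factor gene of conventional dendritic cells, rose by 1.16 (limma adjusted p = 0.00225), from 2.21 to 6.19 FPKM. Batf3, not called, had the lower mean with TNF+TGF-β, at 2.25 against 3.58 FPKM, with overlap. Clec9a, Cd209a and Clec10a were listed at 0 in all TNF+TGF-β libraries and at 0 to 0.36 FPKM in Th0. What part the myeloid and dendritic cell RNA had in the class II levels was not tested.

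With IL-6+TGF-β against Th0, 3 of 7 members were called lower, where 9.15% of all genes tested were. H2-DMa had a log2 difference of −0.74 ± 0.19 (SE, limma adjusted p = 0.0150), H2-Ab1 of −1.02 ± 0.33 (0.0409) and H2-Eb1 of −1.09 ± 0.36 (0.0439). Cd74, at −1.0 (limma adjusted p = 0.0608), and H2-Aa, at −0.96 (0.0604), were of similar size and did not pass, nor did H2-DMb1, at −0.43 (0.278), or Ciita, at −0.09 (0.833). In 6 of 7 members the libraries did not overlap, where 16.8% of all genes were lower without overlap. The count rested on single libraries: it was 0 without the third Th0 library or the second IL-6+TGF-β library, 1 without the first Th0, first TNF+TGF-β or last TNF+TGF-β library, and 5 without the first IL-6+TGF-β or first Tnfr2-/- library. Of the B cell markers, 4 of 12 were lower, with sums of 486 to 1100 FPKM with IL-6+TGF-β, and the lowest sum was in the same second library in which all 7 members were lowest within the group. Of the 10 macrophage and myeloid markers tested, 3 were lower and 0 higher, with a median of −0.92 against −0.60 for the B cell markers, and their sums, 22.3 to 70.5 FPKM against 116 to 172 in Th0, did not overlap. Within the IL-6+TGF-β group the myeloid sum was highest in that second library. The T cell sums were 1647 to 1869 FPKM against 2008 to 2296 in Th0, with 2 of 8 markers lower and 1 higher. Of the 4 dendritic cell markers tested, 1 was lower.

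Between the cytokine pairs, H2-DMb1 was the lower in TNF+TGF-β cultures, where it stood at 14.4 ± 5.79 FPKM, while IL-6+TGF-β cultures stood at 26.3 ± 3.84 (SD, n = 3 each). The log2 difference was −0.87 ± 0.26 (SE, limma adjusted p = 0.0486). It was the only member of 7 called, where 5.50% of all genes tested were lower, and the only member without overlap, where 15.1% of all genes were lower without overlap. The other members ran from −0.91 for H2-Eb1 (limma adjusted p = 0.129) to 0.35 for H2-DMa (0.293), and their intervals were wide, as for Cd74 at −0.38 ± 0.77 (95% half-width). The H2-DMb1 call held only when the second TNF+TGF-β, first Tnfr2-/- or second Tnfr2-/- library was left out, and was lost without any other single library (limma adjusted p = 0.0501 to 0.175). Without the second IL-6+TGF-β library the count was 3, namely H2-Aa, H2-Ab1 and H2-Eb1. Of the 12 B cell markers, 7 were lower and 2 higher with TNF+TGF-β (median −1.29), and their sums, 313 to 406 against 486 to 1100 FPKM, did not overlap. The myeloid sums did not overlap either and ran the other way, at 87.6 to 169 against 22.3 to 70.5 FPKM, although 0 of 10 markers were called.

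In Tnfr2-/- cells against WT cells, both with TNF+TGF-β, all 7 members rose, where 19.9% of all genes tested were higher. H2-Eb1 rose from 208 ± 58.4 to 2456 ± 763 FPKM (SD, n = 3 each), a log2 difference of 3.54 ± 0.36 (SE, limma adjusted p = 2.29e-05). H2-Ab1 rose by 3.50 ± 0.33 (1.6e-05) and H2-Aa by 3.49 ± 0.34 (1.9e-05), so the chains changed by nearly the same amount. H2-DMb1 rose by 3.43 ± 0.26 (5.24e-06), Cd74 by 2.99 ± 0.35 (6.75e-05) and Ciita by 2.96 ± 0.24 (7.97e-06). The smallest rise was that of H2-DMa, by 1.61 ± 0.19 (limma adjusted p = 6.75e-05). As ratios of the group means, the H2-Eb1 level was 11.8 times, the Ciita level 8.49 times and the H2-DMa level 3.12 times that in WT. No member overlapped between the groups, where 26.8% of all genes were higher without overlap. Ranked by the size of the log2 difference, rises and falls together, among 13082 genes, H2-Eb1 was number 63, Ciita number 170 and H2-DMa number 912.

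**Figure D2:**
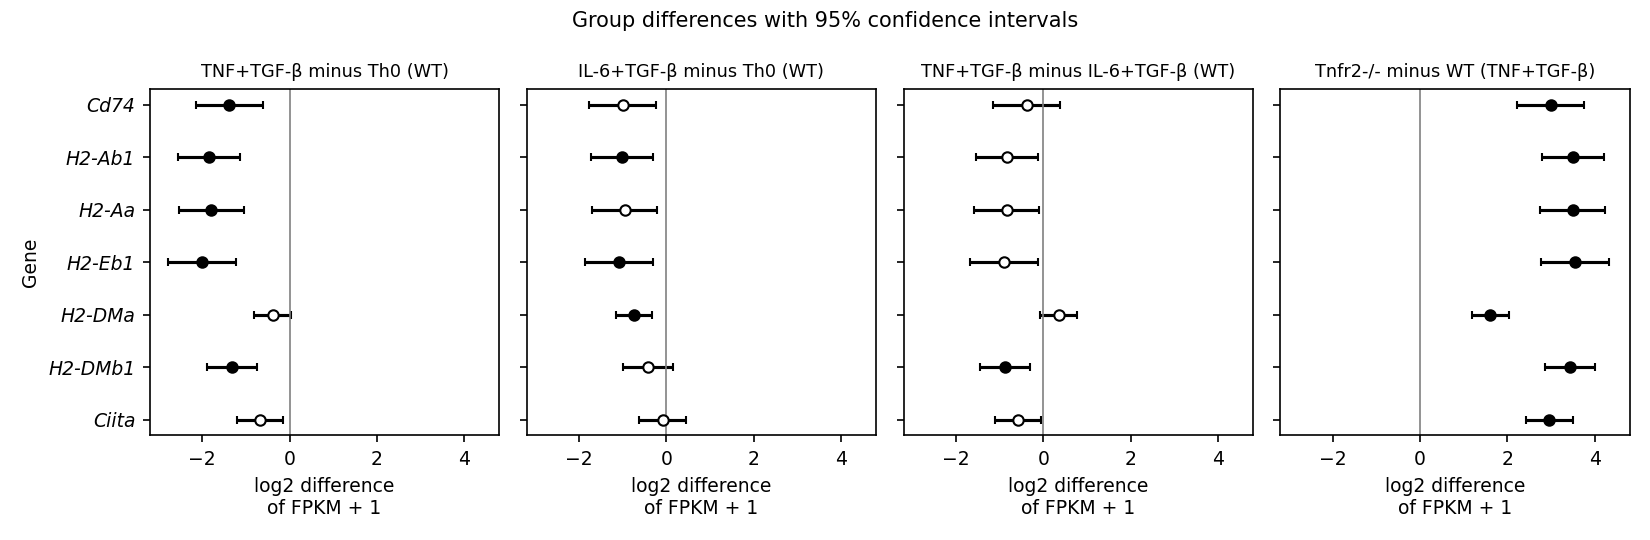
Log2 difference of FPKM + 1 for each member in the 4 comparisons, with 95% confidence intervals as bars. Filled points have an adjusted p under 0.05 and open points do not. All 7 members are right of 0 in the comparison of Tnfr2-/- with WT, from 1.61 to 3.54.

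Markers of other cells rose in the same comparison. All 12 B cell markers were called higher, with sums of 2320, 4090 and 5121 FPKM in the Tnfr2-/- libraries against 313 to 406 in WT. The class II sums, 18722, 34840 and 36798 FPKM, had the same order over these 3 libraries, but this order is that of Cd74 and Ciita. The other 5 members were highest in the second library, such as H2-Ab1 at 5331 against 5264 FPKM in the library numbered 4, and all 7 were lowest in the first. Of the 10 macrophage and myeloid markers tested, 7 were higher and 0 lower. Their sums rose as well, to 1488, 1042 and 210 FPKM against 87.6 to 169 in WT, without overlap. Only their order over the 3 Tnfr2-/- libraries was opposite to that of the B cell sums. Lyz2, which encodes the lysozyme of myeloid cells, was listed at 1310, 928 and 178 FPKM in those libraries. Each member was thus lowest in the library with the highest myeloid sum. What part the myeloid RNA had in the class II levels was not tested. Of the T cell markers, 4 of 8 were lower and 1 was higher, with sums of 1072 to 1652 FPKM against 1950 to 2080. Of the dendritic cell markers, 4 were tested, 1 was higher and 2 lower, and Clec9a and Clec10a were listed at 0 in all Tnfr2-/- libraries.

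**Figure D3:**
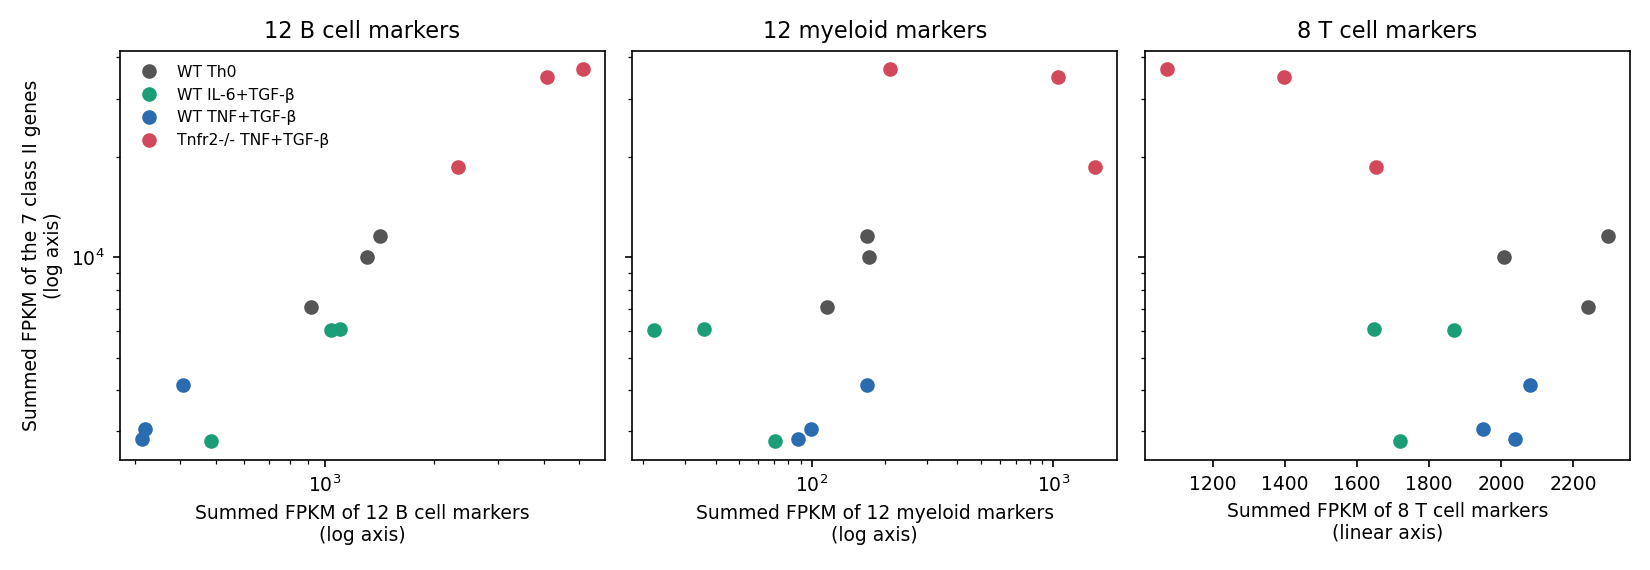
Summed FPKM of the 7 class II genes (log axis) against the summed FPKM of the 12 B cell markers (log axis), the 12 macrophage and myeloid markers (log axis) and the 8 T cell markers (linear axis), with 1 point per library. The Tnfr2-/- libraries have the highest B cell sums, 2320 to 5121, and also the highest myeloid sums, 210 to 1488, against at most 172 in WT.

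The members were then followed between libraries of the same group, with a slope on the mean log2 level of the B cell markers added to the fit. A slope of 1 means that a gene changed as much as the markers did. Slopes were 1.15 ± 0.18 (SE) for Cd74 (limma adjusted p = 0.0217), 1.13 ± 0.19 for H2-Eb1 (0.0334), 1.07 ± 0.18 for H2-Aa (0.0383) and 1.05 ± 0.16 for H2-Ab1 (0.0217). Ciita, at 0.69 (limma adjusted p = 0.167), H2-DMb1, at 0.62 (0.488), and H2-DMa, at 0.47 (0.437), did not pass. Thus 4 of 7 members had a called slope, where 0.413% of all genes had a positive one. The count was 0 without the second or last Th0 library, the second IL-6+TGF-β, the first TNF+TGF-β, the first Tnfr2-/- library or the library numbered 4. It was 2 without the first Th0, second TNF+TGF-β, last TNF+TGF-β or second Tnfr2-/- library, while the slope of Cd74 stayed between 1.05 and 1.35 over the settings tried. None of the 10 macrophage and myeloid markers tested had a called slope, and their median was −0.77. None of the 8 T cell markers had one either. With 0.413% of all genes called positive, such counts are near the share over all genes. Of the 12 B cell markers, which make up the level itself, 6 had a called slope.

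With the B cell marker level in the model, every member's difference was smaller in size for TNF+TGF-β against Th0 and for Tnfr2-/- against WT. Exceptions in the other comparisons were Ciita for IL-6+TGF-β against Th0 (−0.09 without and 0.50 with the marker level) and, between the cytokine pairs, Cd74 (−0.38 and 0.47) and H2-DMa (0.35 and 0.69). For TNF+TGF-β against Th0 the members ran from −0.32 (H2-DMb1) to 0.46 (Cd74), and 0 of 7 were called, where 5.78% of all genes were called in either direction. That is 756 genes, against 2442 higher and 1703 lower without the marker level. The marker sums, 313 to 406 against 916 to 1415 FPKM, did not overlap, and the members' 95% half-widths were 0.63 to 0.9. The fit could therefore hardly separate marker level from group there, and no conclusion is drawn from the lost calls. Between Tnfr2-/- and WT they ran from −0.49 for Cd74 to 1.57 for H2-DMb1, and 0 of 7 were called. In that fit only 0.0459% of all genes tested were called, and the 95% half-widths were 1.08 to 1.52, beside marker sums that did not overlap between these groups. For IL-6+TGF-β against Th0, 0 of 7 were called, where 13.6% of all genes were. The markers themselves did not move alike there, with 4 of 12 called lower. Their log2 differences ran from −4.01 for Fcer2a and −2.13 for Cr2 to −0.32 for Cd79a and 0.45 for Ebf1. Their mean is therefore not a uniform level in that comparison. Between the cytokine pairs H2-DMa alone was called, at 0.69 (limma adjusted p = 0.0426), where 8.21% of all genes were.

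Ratios within a library show which members moved in step. H2-Aa stood at 0.756 to 0.886 times H2-Ab1 over all 12 libraries, and H2-Eb1 at 0.507 to 0.641 times H2-Ab1. Those ranges are narrow beside the change in the levels themselves. The ratio of Cd74 to H2-Ab1 was 5.47 to 6.06 with TNF+TGF-β in WT and 3.78 to 4.50 in all other libraries. The ratio of H2-DMa to H2-DMb1 was 6.51 to 9.63 with TNF+TGF-β, 4.19 to 4.5 in Th0, 3.2 to 3.74 with IL-6+TGF-β and 2.01 to 2.4 in Tnfr2-/- cells. The 4 groups did not overlap in it, but it rests on H2-DMb1, whose reads may be split with H2-DMb2. The ratio of H2-DMa to H2-Ab1, without H2-DMb1, was 0.273 to 0.317 with TNF+TGF-β in WT. In Th0 it was 0.0961 to 0.13, with IL-6+TGF-β 0.101 to 0.189 and in Tnfr2-/- cells 0.0766 to 0.0873. The ratio of H2-DMb1 to H2-Ab1 was 0.0214 to 0.0534 over all 12 libraries. Against a B cell gene, the ratio of H2-Ab1 to Cd79a was 4.17 to 5.21 in Th0, 2.79 to 2.98 with IL-6+TGF-β, 4.08 to 4.61 with TNF+TGF-β and 3.21 to 4.51 in Tnfr2-/- cells. The ratio of H2-Ab1 to Lyz2 was 10.6 to 14.1 in Th0 and 3.81 to 4.84 with TNF+TGF-β, ranges about as narrow as those to Cd79a. It was spread far more widely in the other groups, at 68.3, 7.81 and 37.3 with IL-6+TGF-β and at 2.3, 5.74 and 29.7 in Tnfr2-/- cells.

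**Figure D4:**
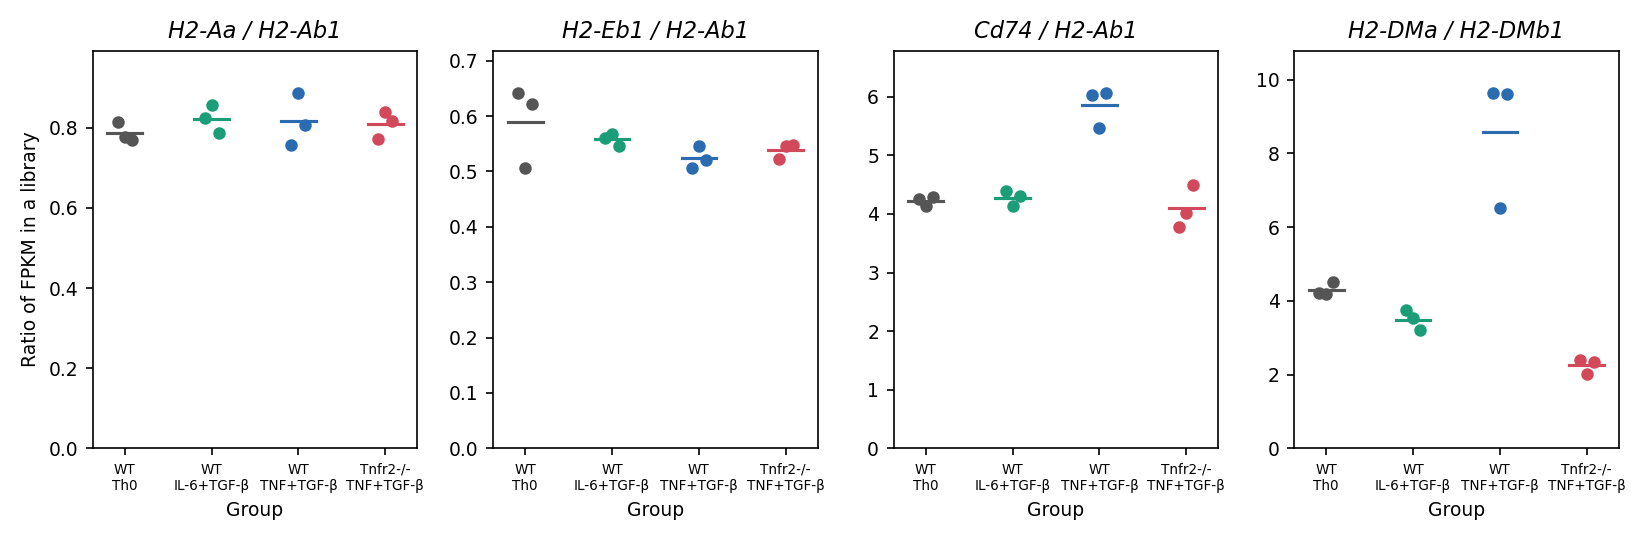
Ratio of FPKM of member pairs within each library, with 1 point per library and a line at the mean of each group. The chain ratios lie in narrow ranges, while the ratio of H2-DMa to H2-DMb1 is 6.51 to 9.63 with TNF+TGF-β in WT and 2.01 to 2.4 in Tnfr2-/-.

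Other genes of the pathway were taken from a list of 19, of which 18 were tested. In Tnfr2-/- against WT cells 11 were higher and 0 lower, where 19.9% of all genes were higher and 17.5% lower, with a median of 0.71 against 0 over all genes. H2-DMb2, the paralog of H2-DMb1, rose from 80.3 ± 23.4 to 869 ± 279 FPKM (log2 difference 3.40). H2-Oa and H2-Ob, which encode the chains of H2-O, an inhibitor of H2-DM that is typical of B cells, rose by 2.54 and 3.50 on the log2 scale. H2-Eb2 rose by 3.19 and March1, a ubiquitin ligase that removes class II from the surface, by 2.99. Among the endosomal enzymes, Lgmn, an asparaginyl endopeptidase, rose by 2.81, Ctss, the cathepsin that trims the invariant chain, by 1.24, Ctsl, another cathepsin gene, by 1.11 and Ifi30, a thiol reductase, by 0.74. Cd83, which counteracts March1, rose by 0.68, and Rfxank, an RFX subunit, by 0.58. The general factors Rfx5, Rfxap, Nfya, Nfyb, Nfyc and Creb1, and the ligase gene March8, were not called.

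**Figure D5:**
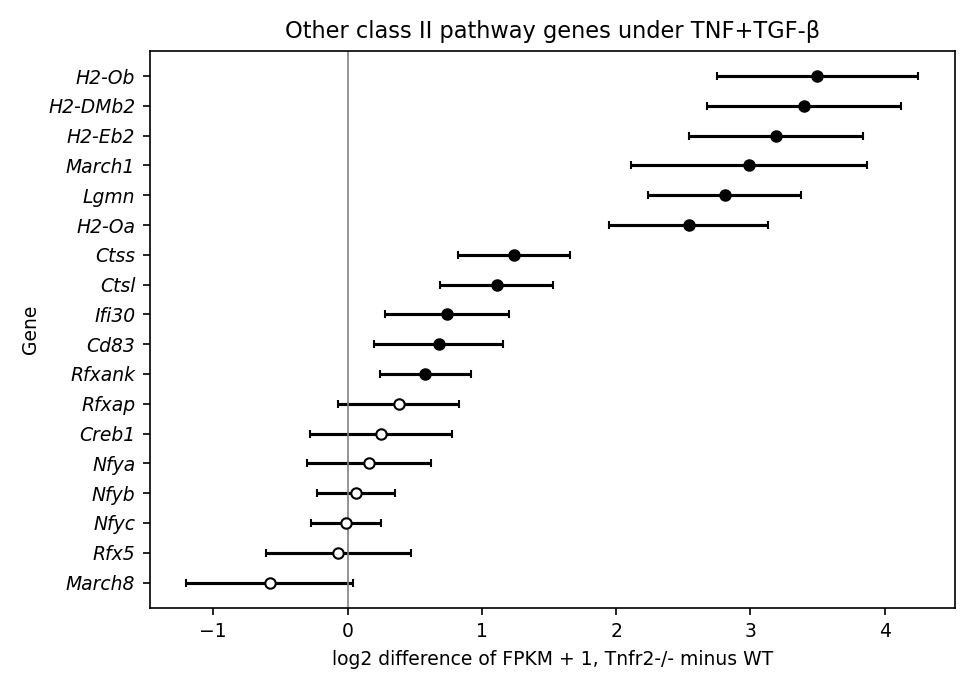
Log2 difference of FPKM + 1 for the 18 tested genes of the other class II pathway list, Tnfr2-/- minus WT with TNF+TGF-β, with 95% confidence intervals as bars. Filled points have an adjusted p under 0.05 and open points do not. Of the 18, 11 are filled, led by H2-Ob at 3.50.

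The same list was mixed in the WT comparisons. With TNF+TGF-β against Th0, H2-DMb2 (−1.79), Lgmn (−0.88), H2-Oa (−0.80) and Ifi30 (−0.66) fell, while Ctsl (1.26), Rfx5 (0.94) and Rfxank (0.53) rose, as log2 differences. Thus 4 of the 18 tested fell where 13% of all genes did, and 3 rose, near the 18.7% of all genes that did. The median of the list was −0.11. With IL-6+TGF-β against Th0, Lgmn rose from 20.8 ± 7.39 to 85.5 ± 20.9 FPKM (2.03) and Ctsl from 5.73 ± 0.369 to 22.7 ± 4.88 (1.80), Rfxank rose by 0.62, and Cd83 (−1.55) and H2-Oa (−1.14) fell. That made 3 of 18 that rose where 14.1% of all genes did, and 2 that fell where 9.15% did. Both counts are near the shares over all genes. Lgmn thus went the other way from the 3 members that fell. Between the pairs, Cd83 was higher with TNF+TGF-β (1.90), and Lgmn (−2.90) and Ifi30 (−0.72) were lower, against 7.31% of all genes higher and 5.50% lower.

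Interferon gamma induces Ciita and class II in many cells, and its response genes were listed as a comparison. Against Th0, all 12 fell with TNF+TGF-β (median −2.08), where 13% of all genes tested did. All 12 also fell with IL-6+TGF-β (median −1.97), where 9.15% of all genes did. Between Tnfr2-/- and WT 3 were higher and 1 lower (median −0.09), where 19.9% of all genes were higher and 17.5% lower. The summed levels were 925 to 991 FPKM against 859 to 952, but this sum adds genes that moved in opposite directions. What part interferon gamma had in the class II levels was not tested.

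Likeness was measured as Pearson's r over the 12 libraries with the mean centred log2 level of the members other than Ciita, among 9293 tested genes with a mean of at least 5 FPKM. The most alike were H2-DMb2 (0.995), Ralgps2 (0.988), Lyl1 (0.987), Ell3 (0.985) and Pkig (0.982), and 2.43% of candidates were over 0.9, since the libraries of a group share their mean level. On deviations from the group means the most alike were H2-DMb2 (0.988), Ly6d (0.982), Wfdc17 (0.977), Lat2 (0.964) and Ly86 (0.962), and 0.43% of candidates were over 0.9. These values are descriptions over libraries that share group, depth and preparation.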

How the data were processed

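Bulk RNA was measured in 12 mouse libraries. Per the labels' protocols, cDNA came from a SMARTer kit and libraries from Nextera XT, which does not mark strand, so reads of antisense or overlapping partners are not separable. The tools named in the submitters' processing notes are STAR 2.5.4, RSEM 1.3.1 and Trimmomatic, with mm10. Trimmomatic's version and the annotation were not given in the sources used here. The deposited table gives 1 RSEM value per gene and library, and the quantity is not named. The authors' values were read as FPKM because each library's sum differs (689045 to 828161), while FPKM times transcript length summed to 900467 to 1010096. Depth was estimated from the steps between low values, of which 74% to 85.2% were whole multiples to within 0.2. Of the gene identifiers, 99.1% matched GENCODE M21, whose coordinates are given.

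Values were analysed as log2(FPKM + 1), which understates the change of low genes, with limma 3.58.1 in R 4.3.3, 1 mean per group over all 12 libraries and a prior that followed the mean level. The fixed design named estimated counts as the other possibility, and the FPKM form was used. Scripts were tested on simulated data. The genes, lists and tests were chosen with earlier results of these data known. All members, pathway genes called in any comparison, the 3 most abundant markers of a list and the 5 most alike genes could be named. Alternatives were other pseudocounts, filters, scalings and models, and each library left out.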

Additional observations from a re-analysis of the deposited data

How the results depend on the processing

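The comparison of Tnfr2-/- with WT called 7 of 7 members in every setting except the fit with the B cell marker level, which called 0, and its counts without 1 library were 7 to 7. For TNF+TGF-β against Th0 the fit with that level also called 0, the other settings called 4 to 7, and leaving out 1 library gave 4 to 6. For IL-6+TGF-β against Th0 the count was 1 with no filter, 1 with only the 2 groups compared and 0 with the marker level, and 0 to 5 without 1 library. Between the cytokine pairs it was 0 with no filter, TPM, only the 2 groups or no trend of the prior, and 0 to 3 without 1 library. The called slopes numbered 0 with no filter, 2 with no trend and 0 to 5 without 1 library. The cause was not tested.

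Deviations of same-numbered libraries correlated at r from −0.284 to 0.344 over 15 pairs, 5 of them over 0.1, and 8 of the 9 pairs among WT groups were positive. The labels do not say what a number stands for, so the main fit left it out, and a shared origin of same-numbered libraries was not excluded. With the replicate number as a block, the counts were 7 for Tnfr2-/- against WT (7 in the main fit) and 6 for TNF+TGF-β against Th0 (5). They were 1 for IL-6+TGF-β against Th0 (3 in the main fit), 0 between the pairs (1) and 0 slopes (4), so these counts depended on that choice.

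With the marker level in the model these values reversed: against Th0 with TNF+TGF-β, Cd74 to 0.46, H2-DMa to 0.36 and Ciita to 0.43; with IL-6+TGF-β, H2-DMb1 to 0.10 and Ciita to 0.50; between the pairs, Cd74 to 0.47; and in Tnfr2-/-, Cd74 to −0.49. Ciita with IL-6+TGF-β, not called, turned to 0.01 on TPM, to 0.02 without IL-6+TGF-β replicate 1 and to 0.07 without replicate 2 (range without 1 library −0.36 to 0.07). The median log2 ratio of the members to the 12 B cell markers differed by −0.09 for IL-6+TGF-β against Th0, −0.09 between the pairs and 0.41 for Tnfr2-/- against WT. With only the 3 most abundant markers these became −0.43, 0.44 and 0.04. Rescaling to TPM moved the median of all genes from 0.068 to 0.221 for TNF+TGF-β against Th0, and the share of calls that were higher from 58.9% to 72.6% (48% with median-ratio scaling). For Tnfr2-/- it moved from 53.2% to 42.7% (46.8% with median-ratio scaling).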
